A study of Mus musculus with 12 samples.

Results

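Pparg, Cebpa, Cebpb, Cebpd, Klf15, Zfp423 and Zfp521 are 7 of the 21951 protein-coding genes in the GENCODE mouse annotation, and all encode transcription factors that act in the formation of fat cells. The regions of each gene were those that overlapped its body or the 50 kb on either side, which gave 41 of 31617 regions of H3K27ac and 23 of 28047 regions of H3K27me3. The regions were taken by position alone, and coordinates are those of mm10. The marks were measured by CUT&RUN, in which an antibody tethers a nuclease to a histone modification so that the DNA beneath it can be cut out and sequenced. The cells were mouse mesenchymal stem cells (MSCs) grown at 2% oxygen, from young mice of 3 to 5 months or old mice of 18 to 22 months, with 3 samples at each age. The cells of a sample were split between the antibodies, so the 12 libraries formed 4 groups of 3. The strain, the sex and the number of animals behind a sample were not given in the labels, so the p-values below measure the spread between these samples, which may be technical.

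H3K27ac, acetylation of lysine 27 on histone H3, marks active promoters and enhancers, while H3K27me3, methylation of the same residue by Polycomb proteins, marks silenced genes, often those that direct another lineage. MSCs can become osteoblasts or adipocytes. In the adipocyte programme C/EBPβ and C/EBPδ act early and induce PPARγ and C/EBPα, which then maintain each other and switch on the genes of lipid storage. KLF15 and ZFP423 promote this path, and ZFP521, a relative of ZFP423, opposes it.

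The deposited signal of a region is its read number scaled by the size of the library. The signal was scaled further within each mark by the median of ratios, and fold changes are log2 of old over young after adding 0.5. Library depth ran from 2750953 to 5541429 reads for H3K27ac and from 3622108 to 9947515 reads for H3K27me3, and old replicate 2 was the shallowest for both marks. The regions of the 7 genes held 2 to 1241 reads per library for H3K27ac and 1 to 2213 for H3K27me3. All 10 markers of MSCs, Pdgfra, Ly6a, Prrx1, Cxcl12 and Col1a1 among them, had H3K27ac within 1 kb of a start site, and their summed signal overlapped between ages (942 to 997 in young, 938 to 1049 in old). H3K27ac lay at 2 of 6 blood cell markers (Csf1r and Cd14, 24.7 to 28.6 in young, 23.7 to 29.6 in old), 1 of 4 endothelial markers (Pecam1, 6.47 to 8.14 and 7.10 to 10.9) and 1 of 4 mature adipocyte markers (Fabp4, 30.3 to 42.0 and 25.7 to 42.0). The remaining markers of those lists, among them Ptprc, Spi1, Cdh5, Adipoq and Plin1, had no H3K27ac region there. H3K27me3 lay at 2 of the 10 MSC markers, Nt5e and Lepr. It also lay at 2 of 6 blood cell, 3 of 4 endothelial and 3 of 4 mature adipocyte markers.

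The start sites of the 7 genes fell into 3 chromatin states, and their promoter sequences are shown because they sit under those states. RefSeq promoter windows (GRCm38.p6, 250 bases before to 50 bases after a start) matched 5 of the 7 genes, and Cebpd and Zfp521 had no entry. The sequences below run 5′ to 3′ on the coding strand and hold the 250 bases before a start site, with CpG dinucleotides, the substrate of DNA methylation and a hallmark of CpG island promoters, in capitals. At Cebpb (chr2:167688665-167688914), at Cebpa (chr7:35119043-35119292) and at the internal start of Pparg (chr6:115421816-115422065) the window lay under H3K27ac and not under H3K27me3. At Klf15 (chr6:90462326-90462575) it lay under H3K27me3 alone. At Zfp423 (chr8:87959596-87959845, minus strand) it lay under regions of both marks.
Cebpb: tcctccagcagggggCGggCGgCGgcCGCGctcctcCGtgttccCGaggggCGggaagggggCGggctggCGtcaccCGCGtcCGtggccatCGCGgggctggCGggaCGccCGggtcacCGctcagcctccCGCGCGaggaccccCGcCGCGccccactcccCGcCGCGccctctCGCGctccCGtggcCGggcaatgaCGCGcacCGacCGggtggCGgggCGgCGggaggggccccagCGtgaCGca
Cebpa: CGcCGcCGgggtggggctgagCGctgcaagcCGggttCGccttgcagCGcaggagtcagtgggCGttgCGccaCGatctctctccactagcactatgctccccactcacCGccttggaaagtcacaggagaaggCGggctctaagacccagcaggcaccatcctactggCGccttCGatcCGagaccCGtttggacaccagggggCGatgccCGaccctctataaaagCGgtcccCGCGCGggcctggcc
Pparg, internal start: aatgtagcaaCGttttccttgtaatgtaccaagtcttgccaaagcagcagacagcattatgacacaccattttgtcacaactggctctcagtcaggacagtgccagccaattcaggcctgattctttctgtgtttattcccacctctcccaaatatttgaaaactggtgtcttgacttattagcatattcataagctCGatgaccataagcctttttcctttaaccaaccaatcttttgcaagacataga
Klf15: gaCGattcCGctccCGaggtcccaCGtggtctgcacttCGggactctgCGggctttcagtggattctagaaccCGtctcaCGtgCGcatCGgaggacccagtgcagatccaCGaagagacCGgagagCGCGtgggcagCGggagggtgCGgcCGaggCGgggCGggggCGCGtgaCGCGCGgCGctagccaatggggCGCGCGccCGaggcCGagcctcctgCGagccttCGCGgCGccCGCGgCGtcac
Zfp423: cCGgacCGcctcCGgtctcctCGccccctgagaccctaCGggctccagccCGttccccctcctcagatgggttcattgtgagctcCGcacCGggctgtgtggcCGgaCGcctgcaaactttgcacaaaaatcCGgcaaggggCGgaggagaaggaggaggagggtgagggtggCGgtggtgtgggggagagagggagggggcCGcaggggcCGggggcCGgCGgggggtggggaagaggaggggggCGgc

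CpG content did not follow the mark. Over the whole window of 300 bases, the ratio of observed to expected CpG had a median of 0.384 over 32841 windows. It was 1.18 at Klf15, 1.03 at Cebpb, 0.909 at an upstream start of Pparg, 0.853 at Cebpa and 0.685 at the Zfp423 upstream start. At the other upstream start of Pparg, under H3K27ac alone, it was 0.467, with 13 CpG. The internal start of Pparg was poor in CpG, with a ratio of 0.170 and 2 CpG in the window, and so was an internal start of Zfp423, with a ratio of 0.227 and 7 CpG. The Klf15 window, the one with the highest ratio, lay under H3K27me3 alone, and so did that of the internal Zfp423 start. The Cebpb window, next to Klf15 in the order, lay under H3K27ac alone.

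Fixed motifs were searched on both strands of these windows, and no motif holds another within it. GCAAT, a core bound by C/EBP factors, occurred 1 time at Cebpb and in none of the other windows of the 5 genes, against 26.4% of all windows. CCAAT occurred 2 times at the internal start of Pparg, 1 time at another Pparg start and 1 time at Klf15 (37.4% of all windows). TATAAA occurred at Cebpa, Cebpb and 1 Pparg start (13.6%). The GC box GGGCGG occurred 5 times at Cebpb and was missing from Cebpa and from the internal start of Pparg (35.7%). The E-box CACGTG occurred 3 times at Klf15 and in no other window of the 5 genes (7.15%). These matches describe the letters of the windows only.

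**Figure D1:**
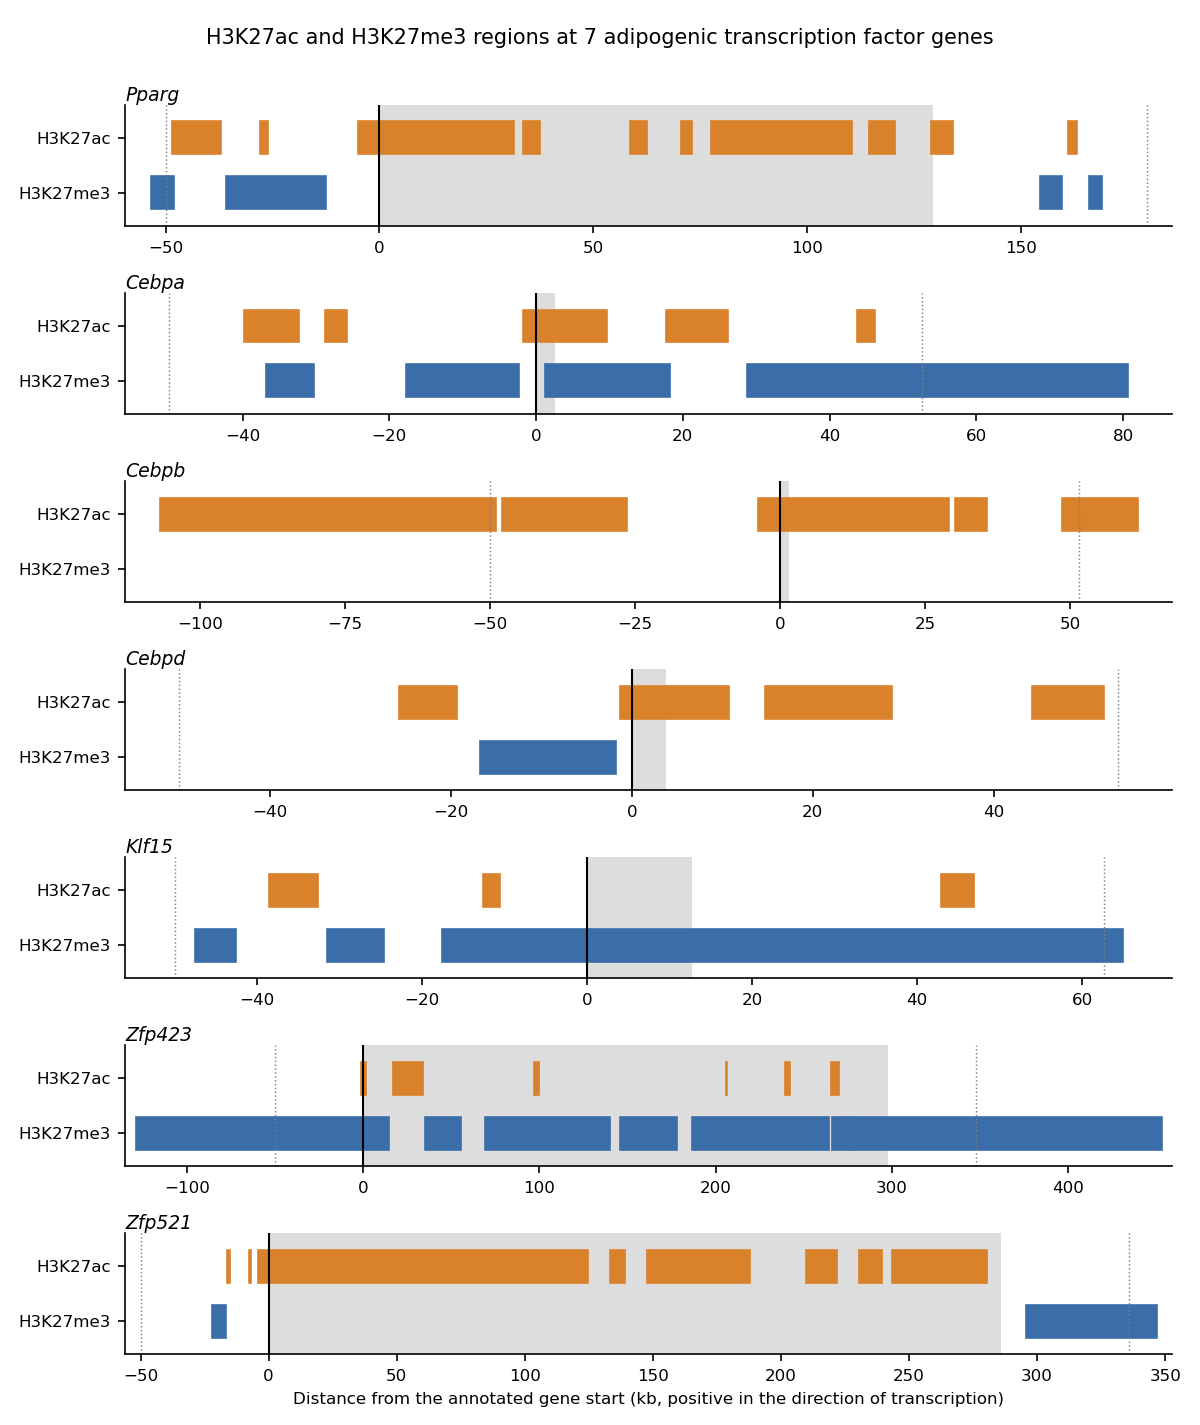
Each panel places the regions of one gene by distance from its annotated start in kb, positive in the direction of transcription, with H3K27ac in orange, H3K27me3 in blue, the gene body in grey and dotted lines at 50 kb beyond it. Pparg and Zfp521 carried H3K27ac and no H3K27me3 over the gene body, H3K27me3 covered all of Klf15 and most of Zfp423, and Cebpb had no H3K27me3 in its window.

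The map of regions shows how differently the 7 genes were marked, at both ages alike. H3K27ac covered 100% of the bodies of Cebpa, Cebpb and Cebpd, 80.1% of Zfp521, 62.9% of Pparg and 9.60% of Zfp423, and none of Klf15, where the median protein-coding gene was covered over 9.64%. H3K27me3 covered 100% of the body of Klf15, 83.4% of Zfp423 and 54.2% of Cebpa, and none of the other bodies. The authors assigned all 41 H3K27ac regions to both ages. Of the H3K27me3 regions, 21 were assigned to both and 2 to young only, 1 of them upstream of Pparg and 1 in an intron of Zfp423.

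Regions of the marks overlapped at 4 of the 7 genes. Of the 41 H3K27ac regions, 13 (31.7%) overlapped an H3K27me3 region by at least 1 base, against 15.7% of all H3K27ac regions, and 10 of the 23 H3K27me3 regions (43.5%) overlapped H3K27ac, against 14.9% of all. No test was made of these shares. The overlaps sat at Zfp423 (5 of 6 H3K27ac regions), Cebpa (4 of 5), Klf15 (2 of 3) and Pparg (2 of 10), and at Cebpb, Cebpd and Zfp521 there were none. The H3K27ac regions of the 7 genes had a median length of 6 kb and the H3K27me3 regions one of 15.5 kb, against 4 kb and 10.5 kb over all regions.

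Comparing old with young cells asked whether age shifts either mark at these regulators, and 0 of 41 H3K27ac regions and 0 of 23 H3K27me3 regions were called at an adjusted p under 0.05 in limma. Over all regions, 0.0822% were called for H3K27ac and 0.488% for H3K27me3. For H3K27ac, 3 regions had an unadjusted p under 0.05 (9.59% of all regions did), and 24 values were higher and 17 lower in old cells (49.6% of all were higher). On the signal as deposited, where the median of all H3K27ac regions was -0.12, 12 were higher and 29 lower. For H3K27me3, 4 regions had an unadjusted p under 0.05 (13.9% of all did), all 4 lower in old cells (8.73% of all regions were lower at that p), and 7 of 23 values were higher and 16 lower (48.6% of all were higher). The 4 include the 2 regions assigned to young only, at Pparg and Zfp423, whose direction is not separate from that assignment. edgeR and DESeq2 on the recovered reads also called 0 regions of either mark, with DESeq2 giving an adjusted p to 6 of the 41 and 8 of the 23. An unadjusted p under 0.05 was reached by 4 and 4 regions in edgeR and by 2 and 3 in DESeq2, where the 3 had no adjusted p. edgeR called 0.297% of all H3K27ac and 1.36% of all H3K27me3 regions, and DESeq2 0.214% and 0.897% of those it tested.

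The median log2 fold change of the 41 H3K27ac regions was 0.03, beside -0.0028 over all regions. That of the 23 H3K27me3 regions was -0.13, beside -0.0077. Young and old libraries did not overlap in 3 of the 41 H3K27ac regions, all lower in old and all at Zfp521 (7.42% of all H3K27ac regions lay below without overlap, 14.5% in either direction). They did not overlap in 3 of the 23 H3K27me3 regions, 2 lower in old, at Pparg and Zfp423, and 1 higher, at Klf15 (10.6% of all lay below and 8.56% above, 19.1% in all). The Pparg region was assigned to young only, so its lack of overlap is not separate from that assignment. In a population of cells, fewer cells carrying a mark and less of the mark per cell cannot be told apart.

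**Figure D2:**
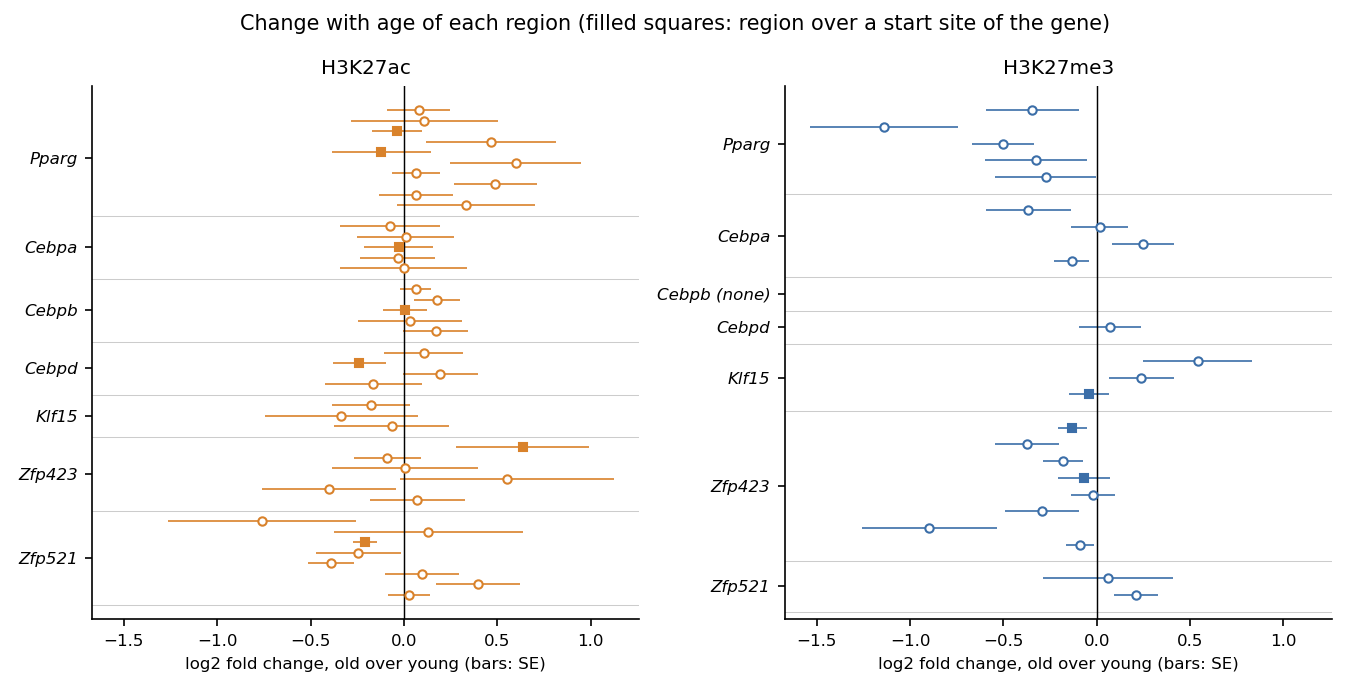
Each point is the log2 fold change of 1 region, old over young, with its SE, for H3K27ac on the left and H3K27me3 on the right, ordered along each gene, and filled squares are regions over a start site of the gene. All 5 H3K27me3 regions of Pparg and all 8 of Zfp423 lie below 0, none of them called, and both sets include a region assigned to young only. H3K27ac regions over start sites lie between -0.24 and 0.64.

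C/EBPβ and C/EBPδ open the programme. Cebpb (chr2:167688915-167690418) had 5 H3K27ac regions and no H3K27me3 region. The region over its start site (chr2:167685001-167718000, 33 kb, across exon and UTR) held signals of 78.3, 89.1 and 62.8 in the young libraries and 82.5, 79.4 and 67.6 in the old libraries. The groups overlapped, and log2 old over young came to 0.0048 (SE 0.12, limma adjusted p = 0.995). The other regions had fold changes of 0.03 to 0.18, the highest at a 21.5-kb region 26.4 kb upstream (chr2:167641001-167662500) that covers the start of Tmem189, where signals were 53.0, 47.4 and 52.4 in the young libraries and 51.7, 61.5 and 60.0 in the old libraries. There the libraries overlapped narrowly (adjusted p = 0.689). A 58-kb region at the edge of the window covers the start of Ube2v1.

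Cebpd (chr16:15887286-15891031) had 4 H3K27ac regions and 1 H3K27me3 region. Its start site lay in a 12-kb H3K27ac region (chr16:15886001-15898000) with signals of 45.9, 41.1 and 37.1 in the young libraries and 32.8, 38.1 and 33.8 in the old libraries. Young replicate 1 was the highest library and old replicate 1 the lowest, the groups overlapped through old replicate 2, and log2 old over young came to -0.24 (SE 0.14, limma adjusted p = 0.622). At 1.72 RPKM in young cells (reads scaled by region length in kb and library size) it was the densest of the 41 H3K27ac regions. The 15-kb H3K27me3 region (chr16:15870501-15885500) ended 1.79 kb upstream of the start site. Its signals were 19.0, 23.4 and 19.5 in the young libraries and 23.0, 16.96 and 25.8 in the old libraries, overlapping, with a log2 fold change of 0.07 (SE 0.17, limma adjusted p = 0.894).

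PPARγ, the nuclear receptor at the head of the adipocyte programme, is encoded by Pparg (chr6:115360951-115490399). H3K27ac lay over both its upstream starts, in a 36.5-kb region, and its internal start, in a 4-kb region. The 36.5-kb region (chr6:115356001-115392500, exonic and intronic) held signals of 61.8, 83.4 and 53.7 in the young libraries and 71.4, 66.2 and 54.0 in the old libraries. The groups overlapped fully, with a log2 fold change of -0.04 (SE 0.13, limma adjusted p = 0.956), and the region at the internal start (chr6:115419501-115423500) had one of -0.12 (SE 0.27, limma adjusted p = 0.925). The other 8 H3K27ac regions of Pparg all had values on the higher side in old cells, from 0.06 to 0.60, although the sum of the window, 0.11 in log2, was -0.011 on the signal as deposited. The smallest p among them was at a 6-kb intronic region (chr6:115475501-115481500) with signals of 12.9, 14.9 and 10.1 in the young libraries and 13.8, 19.5 and 20.7 in the old libraries. Old replicates 2 and 3 stood above every young library, old replicate 1 did not, and log2 old over young came to 0.49 (SE 0.22, limma adjusted p = 0.466).

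H3K27me3 at Pparg was confined to the flanks, and the values of all 5 regions lay on the lower side in old cells without any passing the test. The longest, 23.5 kb in length and 12.5 kb upstream (chr6:115325001-115348500), held signals of 35.7, 28.0 and 36.6 in the young libraries and 29.7, 18.1 and 23.6 in the old libraries. Old replicate 1 lay within the young range and the other old libraries below it, and log2 old over young came to -0.50 (SE 0.17, limma adjusted p = 0.162). On the signal as deposited, without further scaling, it was -0.62 and called (adjusted p = 0.0431), under a scaling in which the median of all H3K27me3 regions also moved to -0.13. A 1.50-kb region farther upstream (chr6:115311501-115313000), assigned by the authors to young only, held 11, 13 and 5 reads in young and 3, 1 and 2 reads in old libraries. Its groups did not overlap, and the ratio of old to young was 0.278 (95% exact interval 0.0944 to 0.682, counting error only), with a log2 fold change of -1.14 (SE 0.40, limma adjusted p = 0.184). Because the assignment was made from these same libraries, the direction, the lack of overlap and the interval are no separate support for a decrease. The remaining 3 regions had fold changes of -0.34 to -0.27.

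Summed over the window, the H3K27me3 signal of Pparg was 58.1, 48.4 and 56.9 in the young libraries and 49.5, 32.8 and 37.2 in the old libraries. The groups overlapped through old replicate 1, with means of 54.5 ± 5.30 in young and 39.8 ± 8.65 in old cells (SD, n = 3). The log2 fold change of -0.46 (SE 0.14, limma adjusted p = 0.165) did not pass the threshold, nor did those from edgeR (adjusted p = 0.190) or DESeq2 (adjusted p = 0.262). It was called without old replicate 1 (-0.63, limma adjusted p = 0.0382) and on the signal as deposited (-0.59, limma adjusted p = 0.0130). The adjusted p ranged from 0.0130 to 0.460 over the alternatives.

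C/EBPα, the partner of PPARγ in the mature adipocyte, is encoded by the short gene Cebpa (chr7:35119293-35121928). Its start site lay in an 11.5-kb H3K27ac region (chr7:35117501-35129000) and in a gap between H3K27me3 regions, one ending 2.29 kb upstream and one beginning 1.21 kb downstream. The H3K27ac signals were 25.2, 20.6 and 18.6 in the young libraries and 23.3, 17.9 and 21.7 in the old libraries. They overlapped, with a log2 fold change of -0.03 (SE 0.19, limma adjusted p = 0.978), and all 5 H3K27ac regions of the gene had fold changes between -0.07 and 0.0095. The H3K27me3 region over the 3′ part of the gene (chr7:35120501-35137500, 17 kb) shared 9 kb with H3K27ac. Its signals were 18.8, 24.6 and 24.7 in the young libraries and 21.5, 33.3 and 27.1 in the old libraries, and its fold change on that scale was 0.25 (SE 0.17, limma adjusted p = 0.528). The region 2.29 kb upstream of the start (chr7:35101501-35117000) had a fold change of 0.02 (SE 0.15, limma adjusted p = 0.976). The smallest p among the H3K27me3 regions was at chr7:35082501-35089000, 30.3 kb upstream, with signals of 8.05, 10.0 and 7.80 in the young libraries and 8.24, 5.09 and 6.62 in the old libraries and a fold change of -0.37 (SE 0.23, limma adjusted p = 0.497). The 7.50-kb H3K27ac region that overlaps it (chr7:35079501-35087000) held 19.1, 14.9 and 12.05 in the young libraries and 19.3, 7.79 and 19.2 in the old libraries, with a fold change of -0.07 (SE 0.27, limma adjusted p = 0.959). The fourth H3K27me3 region, 52 kb long, covers the start of the neighbouring amino acid transporter gene Slc7a10.

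Klf15 (chr6:90462576-90475238), which encodes a Krüppel-like factor induced during adipogenesis, was the only member with H3K27me3 and no H3K27ac over its upstream start site. An 82.5-kb H3K27me3 region (chr6:90445001-90527500) covered the whole gene, with signals of 189, 197 and 238 in the young libraries and 193, 237 and 178 in the old libraries. The libraries were interleaved, with a log2 fold change of -0.04 (SE 0.11, limma adjusted p = 0.908). Of the other H3K27me3 regions, a 7-kb region 24.6 kb upstream (chr6:90431001-90438000) held 12.6, 12.4 and 12.7 in the young libraries and 12.8, 17.5 and 14.8 in the old libraries, so that every old library was above every young library, though old replicate 1 by little, with a fold change of 0.24 (SE 0.17, limma adjusted p = 0.573). A 5-kb region 42.6 kb upstream had one of 0.54 (SE 0.29, limma adjusted p = 0.429), and its signals were 7.26, 8.60 and 3.12 in the young libraries and 7.16, 11.3 and 8.19 in the old libraries. The low value of young replicate 3 stood apart from the other libraries there. The 3 H3K27ac regions in the window lay outside the gene and had fold changes of -0.34 to -0.07. The smallest p was at a 6-kb region (chr6:90424001-90430000) over the start of Cfap100, with signals of 16.5, 15.4 and 17.3 in the young libraries and 15.4, 11.7 and 16.7 in the old libraries and a fold change of -0.18 (SE 0.21, limma adjusted p = 0.843).

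ZFP423, a zinc finger protein that commits cells to the preadipocyte state, is encoded by Zfp423 (chr8:87661810-87959595, minus strand), the gene of the set with the greatest length under H3K27me3. Its 8 H3K27me3 regions reached 174 kb in length and together spanned 532.5 kb, counted whole and in part beyond the window. Within the window, H3K27me3 covered 87.6%. The 174-kb region ranked 218 in length among 28047 H3K27me3 regions and also covers the start of 4933402J07Rik. The 143.5-kb region over the upstream start (chr8:87945001-88088500) held signals of 312, 341 and 335 in the young libraries and 291, 309.7 and 301 in the old libraries. Every old library was below every young library, by a margin smaller than the spread within the young group, and log2 old over young came to -0.13 (SE 0.08, limma adjusted p = 0.474). All 8 regions had values on the lower side in old cells, from -0.90 to -0.02, although under quantile normalisation the value of the whole window was 0.0024. The lowest was at a 4-kb intronic region assigned to young only (chr8:87680501-87684500), with signals of 5.50, 2.40 and 3.90 in the young libraries and 1.52, 2.83 and 1.26 in the old libraries and a fold change of -0.90 (SE 0.36, limma adjusted p = 0.255). Its direction is not separate from that assignment, which was made from these same libraries. A 20.5-kb region (chr8:87904001-87924500) held 23.9, 26.2 and 25.2 in the young libraries and 16.7, 26.6 and 16.1 in the old libraries, with old replicates 1 and 3 below and old replicate 2 above all young libraries. It had a value of -0.37 (SE 0.17, limma adjusted p = 0.335), but was called without old replicate 2 (-0.60, limma adjusted p = 0.0343).

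H3K27ac at Zfp423 was sparse, with 6 regions of 0.5 to 17 kb, and 5 of them lay within or across H3K27me3 regions. The 3-kb region at the upstream start (chr8:87958001-87961000) lay wholly inside the 143.5-kb H3K27me3 region. Its signals were 2.91, 5.71 and 3.91 in the young libraries and 8.29, 3.89 and 8.58 in the old libraries. Old replicates 1 and 3 were above every young library and old replicate 2 was among them. The log2 fold change of 0.64 (SE 0.36, limma adjusted p = 0.587) was the largest positive value of the 41 H3K27ac regions, at one of the lowest signals, with 5 reads in old replicate 2. CUT&RUN on a population cannot tell whether both marks sat on the same chromosomes or in different cells.

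Zfp521 (chr18:13687013-13972787, minus strand), whose product holds back the adipocyte fate, had the broadest H3K27ac of the set. A 129-kb region (chr18:13848001-13977000) covered its start site and ranked 113 in length among 31617 H3K27ac regions. It held signals of 401, 363 and 353 in the young libraries and 327, 301 and 341 in the old libraries. Every old library was below every young library, and log2 old over young came to -0.21 (SE 0.06, limma adjusted p = 0.224). Across the alternatives it stayed between -0.33 and -0.15 and was never called, with adjusted p from 0.0947 to 0.812. A 40-kb region inside the gene (chr18:13785001-13825000) held 84.7, 71.4 and 70.7 in the young libraries and 69.9, 49.0 and 55.0 in the old libraries, again with all old libraries below all young ones and old replicate 1 closest to them, and had a fold change of -0.39 (SE 0.12, limma adjusted p = 0.234). The third region without overlap was a 1-kb region 15.2 kb upstream (chr18:13988001-13989000) with signals of 4.53, 1.71 and 3.26 in the young libraries and 1.58, 1.56 and 1.51 in the old libraries, where old replicate 2 held 2 reads and the fold change was -0.76 (SE 0.50, limma adjusted p = 0.676). Along the gene the values went both ways, and 4 of its 8 H3K27ac regions were above 0, up to 0.40. H3K27me3 lay outside the gene, and a 51-kb region 10.0 kb past its end (chr18:13626001-13677000) held 62.0, 85.0 and 66.3 in the young libraries and 77.9, 92.1 and 75.6 in the old libraries, overlapping, with a fold change of 0.21 (SE 0.12, limma adjusted p = 0.446).

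**Figure D3:**
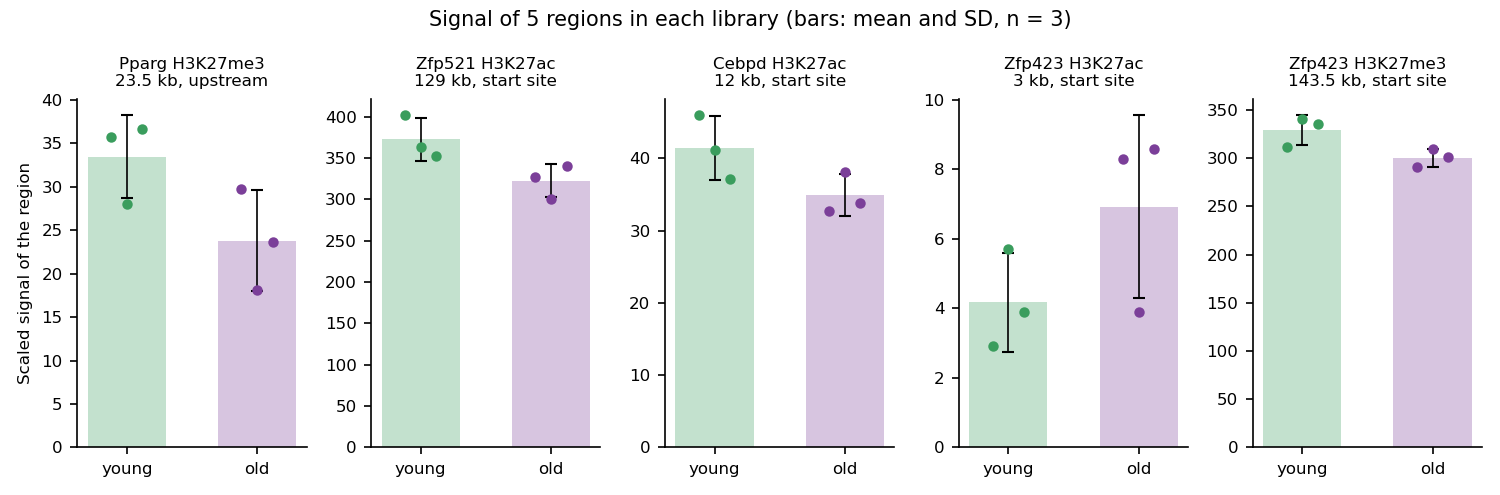
Each panel gives the scaled signal of 1 region in every library, with bars and whiskers for the mean and SD of 3 libraries and a y axis that starts at 0. In the 129-kb Zfp521 and 143.5-kb Zfp423 regions every old library lies below every young one, and neither was called. Of all regions, 7.42% of H3K27ac and 10.6% of H3K27me3 lay below in this way. The Pparg, Cebpd and 3-kb Zfp423 regions overlap between the ages.

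To obtain 1 level per gene, the signal of all regions in a window was summed, each region entering whole even where it ran past the window. No window was called for either mark: 0 of 7 for H3K27ac in limma, where 0.684% of 17248 windows were called, and 0 of 6 for H3K27me3, where 0.436% of 17445 were called. An unadjusted p under 0.05 was reached by 1 of the 7, Zfp521, and by 1 of the 6, Pparg, against 12.1% and 14.4% of all windows. edgeR and DESeq2 called 0 in both marks, with 1 and 2 windows at an unadjusted p under 0.05 in edgeR and 1 and 1 in DESeq2. Of all windows, edgeR called 0.748% for H3K27ac and 0.894% for H3K27me3, and DESeq2 0.142% and 0.901% of the windows it tested. The Zfp521 H3K27ac window held 618, 547 and 540.2 in the young libraries and 536, 472 and 507 in the old libraries. It was the only member window without overlap between the ages (16.6% of all H3K27ac windows and 19.5% of all H3K27me3 windows had none), with a log2 fold change of -0.17 (SE 0.06, limma adjusted p = 0.182). Without young replicate 1 that value was -0.11.

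**Figure D4:**
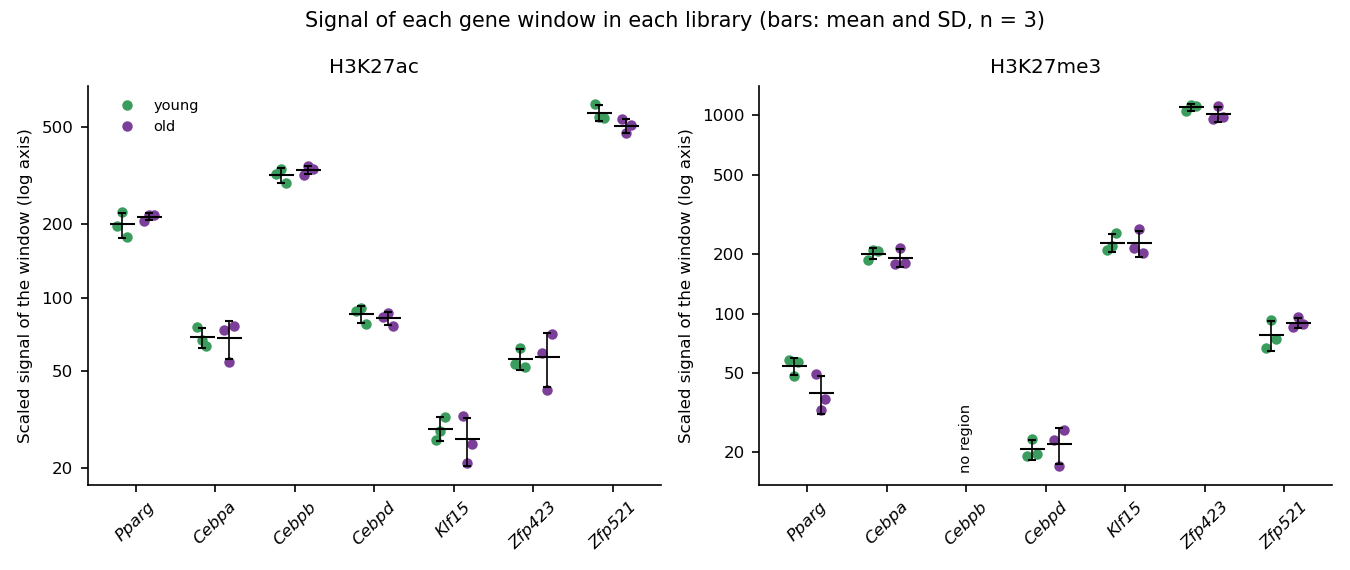
The scaled signal summed over each gene window is plotted for every library on a log axis, H3K27ac on the left and H3K27me3 on the right, with the mean and SD of 3 libraries. Young and old overlap for every gene and mark except H3K27ac at Zfp521, where the old libraries lie between 472 and 536.

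The other H3K27ac windows overlapped between the ages. Pparg held 197, 223 and 177 in the young libraries and 206, 218 and 217 in the old libraries, a log2 fold change of 0.11 (SE 0.08, limma adjusted p = 0.614). Those of Cebpb, Zfp423, Cebpa and Cebpd were 0.08 (SE 0.07), 0.0076 (SE 0.14), -0.02 (SE 0.12) and -0.06 (SE 0.10), and that of Klf15 was -0.16 (SE 0.17). In H3K27me3 the windows of Klf15, Cebpd, Cebpa, Zfp423 and Zfp521 had fold changes of -0.0069 (SE 0.10), 0.07 (SE 0.16), -0.07 (SE 0.09), -0.11 (SE 0.08) and 0.22 (SE 0.11). Most of these values moved by over 1.5 times with 1 library left out. The H3K27ac value of Klf15 ran from -0.33 without old replicate 1 to -0.01 without old replicate 2, and that of Pparg from 0.03 without young replicate 3 to 0.19 without young replicate 2. Cebpb ran from 0.02 to 0.12 between the same libraries, and Cebpd from -0.13 without young replicate 3 to -0.01 without old replicate 3. In H3K27me3, Zfp521 ran from 0.11 without young replicate 1 to 0.35 without young replicate 2. The H3K27me3 values of Zfp423 and Cebpa ran from -0.18 and -0.16 without old replicate 2 to -0.07 and -0.03 without old replicate 1. Old replicate 2, the shallowest library, was the lowest of 6 for 4 of the 7 H3K27ac windows (Cebpa, Klf15, Zfp423 and Zfp521) and the highest for 3 of the 6 H3K27me3 windows (Cebpa, Klf15 and Zfp521). The part of depth in these values was not tested.

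Levels between genes were compared per kb of covered region. In young cells the H3K27ac density was 1.21 ± 0.134 RPKM (SD, n = 3) at Klf15, 1.21 ± 0.0915 at Zfp521, 1.21 ± 0.0811 at Cebpb, 1.06 ± 0.0851 at Cebpd, 1.04 ± 0.0981 at Cebpa, 0.935 ± 0.109 at Pparg and 0.932 ± 0.0924 at Zfp423. Only the step from Cebpb to Cebpd exceeded the SD of both neighbours. The region over the start of Ube2v1, at 1.36 RPKM, makes up 58 of the 131 kb behind the Cebpb value. The region over the Cebpb start itself stood at 1.16 RPKM, and the step without the Ube2v1 region was not tested. The value of Klf15 rests on 12 kb of H3K27ac outside the gene, and none of it on the promoter. The H3K27me3 density was 1.20 ± 0.126 RPKM at Klf15, 1.10 ± 0.0732 at Cebpa, 1.03 ± 0.0395 at Zfp423, 0.736 ± 0.0717 at Pparg, 0.691 ± 0.119 at Zfp521 and 0.688 ± 0.0798 at Cebpd. Here the steps from Cebpa to Zfp423, barely, and from Zfp423 to Pparg exceeded the SD of both neighbours, and the 3 genes after Zfp423 did not differ beyond their spread. Of the 91 kb behind the Cebpa value, 52 kb lay in the region over the start of Slc7a10, at 1.38 RPKM.

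The balance of the marks was taken as log2 of the H3K27ac over the H3K27me3 window signal in each sample, joining libraries of the same age and sample number. The tables of the marks were normalised separately, so the balance is given as values with no test. In young cells Zfp521 (2.87 ± 0.32, SD, n = 3), Cebpd (2.03 ± 0.13) and Pparg (1.86 ± 0.30) stood on the H3K27ac side. Cebpa (-1.54 ± 0.23), Klf15 (-2.94 ± 0.03) and Zfp423 (-4.28 ± 0.11) stood on the H3K27me3 side, where the median of 15661 genes with both marks was -0.49. These sums also reflect the length covered by each mark. Per kb of covered region the young balance was 0.82 at Zfp521, 0.62 at Cebpd and 0.34 at Pparg. It was -0.08 at Cebpa, 0.01 at Klf15 and -0.15 at Zfp423. At Cebpa, the 52-kb region over the start of Slc7a10 held 144 of the mean young H3K27me3 signal of 201. Cebpb, with no H3K27me3 region, has no balance. The related zinc finger genes Zfp521 and Zfp423 thus took the extremes among the members with a balance. Of all genes with both marks, 89.0% and 8.24% had a young balance at or below theirs.

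By window signal, the sides of the balance were the same in old cells for all 6 genes. The balance of Pparg was 1.75, 2.20 and 1.63 in the young samples and 2.04, 2.71 and 2.53 in the old samples. Old replicates 2 and 3 were above every young sample and old replicate 1 was not, so the groups overlapped, and the difference of 0.57 was above the 95th percentile of all genes (0.433). Without old replicate 2 the difference was 0.430, just under that value. The balance of Zfp521 was 3.20, 2.55 and 2.85 in young and 2.63, 2.30 and 2.51 in old samples. The difference of -0.39 was below the 5th percentile (-0.38), again with overlap between the groups. Without young replicate 1 it was -0.22, without old replicate 2 it was -0.29, and neither is below that percentile. Both percentiles were taken with all libraries and were not recomputed with a library left out. Cebpd (-0.13), Klf15 (-0.15), Cebpa (0.05) and Zfp423 (0.12) differed by less than the SD of the old samples, and the median difference of all genes was 0.06. In 0 of the 6 genes were old and young samples apart, against 19.3% of all genes.

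**Figure D5:**
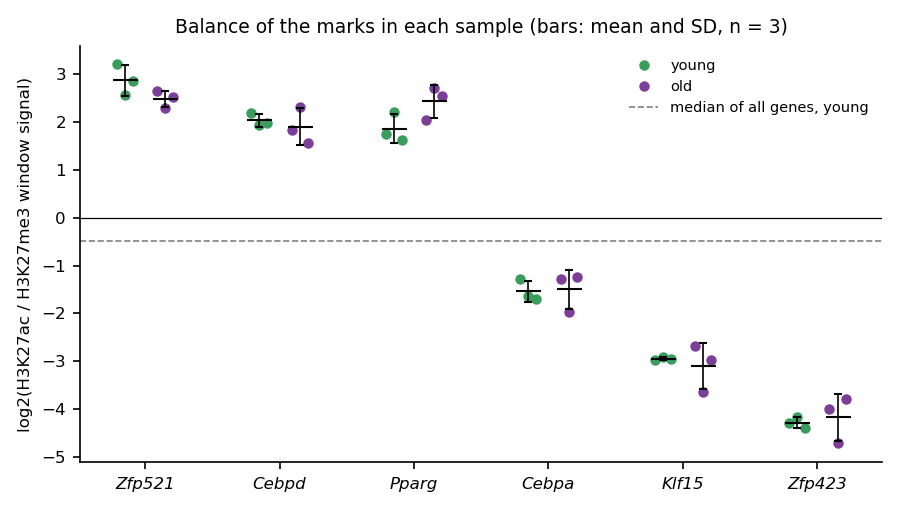
The log2 ratio of H3K27ac to H3K27me3 window signal is plotted for each sample of the 6 genes with both marks, with the mean and SD of 3 samples and a dashed line at the young median of all genes. Zfp521, Cebpd and Pparg lie above 0 and Cebpa, Klf15 and Zfp423 below it in every sample, and Pparg shows the largest shift between ages, from 1.86 to 2.43.

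Other adipogenesis genes were counted by window in the same fits. Of 14 regulators that promote the process, such as Ebf1, Klf4, Srebf1 and Rxra, 14 had H3K27ac and 13 had H3K27me3 regions. None of the 14 was called in H3K27ac by limma at an adjusted p under 0.05, and 1 of the 13 was called in H3K27me3, where 0.684% and 0.436% of all windows were called. An unadjusted p under 0.05 was reached by 2 of the 14 and 3 of the 13, against 12.1% and 14.4% of all windows. That gene was Ebf1, an early B-cell factor that also drives fat cell formation, whose H3K27me3 window held 43.2, 54.2 and 47.3 in young and 65.9, 87.0 and 66.2 in old libraries. Every old library was above every young one, with a log2 fold change of 0.59 (SE 0.12, limma adjusted p = 0.0327). It was not called without young replicate 1, 2 or 3 or old replicate 2 (adjusted p from 0.0572 to 0.151), without trend and robust moderation (0.224) or with 20 kb on each side (0.501), while edgeR (adjusted p = 0.0151) and DESeq2 (adjusted p = 0.00316) called it. Its H3K27ac window, 1054 ± 5.50 in young and 1040.2 ± 10.6 in old cells (SD, n = 3), had a log2 fold change of -0.02.

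Of 11 factors that restrain adipogenesis, such as Gata2, Dlk1 and Wnt10b, all had both marks and 0 were called in either mark by limma, with 4 of 11 at an unadjusted p under 0.05 in each (12.1% and 14.4% of all windows). The lowest adjusted p was 0.0991 for H3K27ac, at Foxo1 (-0.35, SE 0.10), and 0.115 for H3K27me3, at Gata2 (-0.32, SE 0.09). In H3K27ac, 5 of the 11 values were higher and 6 lower in old cells. Young and old did not overlap in 5 H3K27ac windows, all higher in old and Foxo1 not among them (16.6% of all windows). In H3K27me3 they did not overlap in 5 windows, 2 higher and 3 lower (19.5% of all). These shares were not tested. Of 10 adipocyte effectors, such as Fabp4, Lpl, Adipoq and Lep, 9 had H3K27ac and 10 had H3K27me3, and 0 were called, with 2 at an unadjusted p under 0.05 in each mark, against the same shares. The median log2 fold changes of these lists ran from -0.08 to 0.04, beside 0.03 and -0.04 over all H3K27ac and H3K27me3 windows.

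The genes most like each member were those at the smallest Euclidean distance over the 12 library densities (log2), among 15639 genes with both marks and no region shared with a member. Zswim7, Adora2b and Fyn were closest to Pparg (0.51 to 0.56). Slc14a1, Erg28 and Flvcr2 were closest to Cebpa (0.29 to 0.31), and Trpv1, Fam117a and Fbxw17 to Cebpd (0.37 to 0.40). Thegl, Spocd1 and Fjx1 were closest to Klf15 (0.46 to 0.49). Alpl, the alkaline phosphatase gene of osteoblasts, with Mef2a and Etfrf1, was closest to Zfp423 (0.42 to 0.43), and Nt5dc1, Psd3 and Enox1 to Zfp521 (0.40 to 0.41).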

How the data were processed

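The authors deposited 1 table of regions per mark, in which the value of a region is a signal, a read number scaled by library size. The tables are labelled RPKM, but the values imply the same length of 0.5 kb for every region, so densities were computed here from the region lengths. The submitters' processing notes name Bowtie2, Picard and the mm10 (GRCm38) build, and the peak caller is not given in the sources used here. All deposited signal values divided into whole reads (100% within 0.01 reads), and no column of per-sample values was left unused. The tables of the marks were analysed apart. Signal was scaled by the median of ratios and log2(signal + 0.5) was tested with limma 3.58.1 (trend and robust moderation, all regions or all gene windows, Benjamini-Hochberg adjustment) in R 4.3.3. edgeR 4.0.16 and DESeq2 1.42.0 on the whole reads were alternatives, with the pseudocount, scaling, a filter on low values, each replicate left out, a replicate block and windows of 0 and 20 kb. The limma, edgeR and DESeq2 steps were tested on simulated data. A floor of 3 reads equals a signal of 1.08 to 2.18 for H3K27ac and 0.603 to 1.66 for H3K27me3, and intervals cover counting error only. Genes were taken from GENCODE vM21. Regions were given in full where they covered a start site, had the smallest p of a gene and mark, or were called in any alternative, and the regions of lowest read number or without overlap were added after their values were seen. Members and lists were chosen with earlier results of these data known.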

Additional observations from a re-analysis of the deposited data

How the results depend on the processing

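The counts and medians over the members kept their value within 1.5 times or within the spread in 104 of 108 recomputations, and the balance of the 6 genes moved by less than 1 SD in 56 of 56. In the other 4, 1 H3K27me3 region was called on the signal as deposited (Pparg) and 1 without old replicate 2 (Zfp423), and 1 H3K27me3 window was called on the signal as deposited and 1 without old replicate 1 (Pparg both times). With each replicate left out, the H3K27me3 counts ranged from 0 to 1. The spread allowed for the medians was 0.19 for each mark, larger than the medians themselves. On the signal as deposited the H3K27ac median of the member regions changed sign, from 0.03 to -0.09. With quantile normalisation the H3K27me3 median went from -0.13 to -0.07. The balance difference of Cebpa, Cebpd, Klf15 and Zfp423 changed sign with 1 library left out, within that SD. The signal as deposited moved the median of all regions to -0.12 for H3K27ac and -0.13 for H3K27me3, and calls over all regions went from 10 higher and 16 lower to 16 and 89, and from 23 and 114 to 21 and 753. H3K27ac windows went from 71 higher and 47 lower to 3 and 34 (35 and 59 with TMM, 24 and 60 with quantile normalisation), and H3K27me3 windows from 21 and 55 to 20 and 603 (25 and 25 with TMM).

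Values near 0 changed sign, and the cause was not tested. On the signal as deposited the H3K27ac windows of Pparg, Zfp423 and Cebpb were -0.011, -0.11 and -0.043, the Cebpd H3K27me3 window and region -0.050 and the Cebpb start region -0.11. With TMM the Zfp423 H3K27ac window was -0.026, the Klf15 H3K27me3 window 0.032 and the Cebpb start region -0.0030. With quantile normalisation the Zfp423 H3K27ac window was -0.013, the H3K27me3 windows of Klf15 and Zfp423 0.038 and 0.0024, the Cebpb start region -0.032 and the Klf15 start region 0.026. With edgeR and with DESeq2 the Klf15 H3K27me3 window was 0.020 and 0.021 and the upstream Cebpa H3K27ac region 0.10 and 0.062. The Cebpa H3K27me3 value was 0.25 over the gene body and 0.13 with 20 kb.

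With each replicate left out, H3K27ac ranged from -0.11 to 0.13 for the Cebpa window, -0.16 to 0.21 for the Zfp423 window, -0.18 to 0.14 at the Pparg start, -0.13 to 0.091 at the Cebpa start, -0.29 to 0.34 at the upstream Cebpa region and -0.13 to 0.12 at the Cebpb start. H3K27me3 ranged from -0.13 to 0.076 for the Klf15 window, -0.16 to 0.061 for the Klf15 region and -0.056 to 0.24 for the Cebpd window and region. The difference in balance between the ages also changed sign at some genes. It ranged from -0.077 to 0.28 at Cebpa, -0.34 to 0.046 at Cebpd, -0.36 to 0.12 at Klf15 and -0.075 to 0.39 at Zfp423.

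Same-numbered samples of the ages did not deviate together (correlations of -0.05 to 0.07 for H3K27ac and -0.08 to 0.04 for H3K27me3). These correlations, of deviations from means of 3 libraries, cannot tell whether same-numbered samples share more than a number. With the replicate block 0 member regions and 0 member windows were called in either mark, and calls over all H3K27ac regions went from 26 to 81 and over all H3K27me3 regions from 137 to 309. Depth limits the smallest regions, which held as few as 1 read in a library.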
